A study of Homo sapiens with 28 samples.

Results

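The histone genes were taken as the protein-coding genes of the count tables whose symbol begins with a histone name (H1-, H2AC, H2AJ, H2AX, H2AZ, H2BC, H2BU, H3-, H3C, H4-, H4C or MACROH2A). The rule found 85 of 20026 protein-coding genes and of 62703 genes in all, and left out 31 further genes with such a symbol that are pseudogenes or noncoding. Of the 85, 14 were variant histone genes and 71 were replication-dependent histone genes. RNA-seq covered 24 libraries of 2 colorectal cancer cell lines in 8 groups of 3. MDST8, a mesenchymal line, gave wild-type (WT) cells and 5 TWIST1 knockout clones made by CRISPR-Cas9, named here 1.1, 2.2, 3.2, 3.5 and 3.6 after the numbers in their library names. The labels give clones 3.2, 3.5 and 3.6 the same clone name with different numbers, and they are treated as separate colonies. The study derived its knockout colonies from single cells, so the knockout and the history of a colony cannot be told apart. LoVo, an epithelial line, gave libraries labelled TWIST1 shRNA and shRNA control. The labels do not say whether the libraries of a group came from separate cultures, so p-values measure only the spread between libraries. H2AJ was singled out because it was nearly lost in clone 3.6, and values of clone 3.6 against WT are therefore given as description, with no p-value.

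Histones wrap DNA into nucleosomes, with H2A, H2B, H3 and H4 in the core and H1 on the linker. Replication-dependent genes supply the bulk of them during S phase, lie in clusters, and make short mRNAs that normally end in a conserved stem-loop in place of a poly(A) tail. The stem-loop is bound by SLBP and cleaved by a machinery that includes the U7 snRNP. Variant genes are read outside S phase as well, from scattered sites, and their mRNAs are polyadenylated. Some replication-dependent genes can also use a downstream poly(A) site, and such transcripts are known from cells that leave the cycle or differentiate.

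The mRNA was selected on oligo-dT beads, and the annotated 3' ends are therefore shown first. In GENCODE v44 transcripts a consensus of the histone stem-loop, searched over the whole transcript on its own strand, was found in 70 of the 71 replication-dependent genes (98.6%), in 2 of the 14 variant genes (H2AX and H3-7) and in 0.782% of 19683 protein-coding genes. The 5 sequences below, from these GENCODE transcripts, are shown as examples of tested histone genes that match the consensus. A link between this end and the changes reported below was not tested. The capitals mark the bases that match the consensus.
H2BC21: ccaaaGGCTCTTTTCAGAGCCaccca
H3C6: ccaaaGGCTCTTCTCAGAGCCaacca
H2BC5: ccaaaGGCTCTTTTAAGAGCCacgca
H2BC12: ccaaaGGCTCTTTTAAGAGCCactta
H2AX: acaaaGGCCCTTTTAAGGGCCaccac
The H2BC12 model stops 5 bases after the matched bases, as most replication-dependent models do. The H2BC21 model runs on for 1729 bases and ends with a poly(A) signal (AATAAA in the last 50 bases), and the H2AX model runs on for 1024 bases. H3C6 and H2BC5 each have 1 model that ends at the stem-loop and another with a poly(A) signal. H2AJ has no match to the consensus and does have a poly(A) signal.

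Variant genes held most of the histone mRNA measured. Summed over the 14 variant genes, the level was 2693 ± 25.1 RPM (counts scaled to the library total; SD, n = 3) in MDST8 WT, against 31.7 ± 2.3 RPM for all 71 replication-dependent genes together. No library had 1 RPM or more of 56 of the 71, and 7 histone genes had no fragment in any library. After a filter on low values, 16 histone genes were tested in MDST8 (9 variant, 7 replication-dependent) and 20 in LoVo (10 of each class), all from the same 20 genes. The remaining 65 were tested in neither line. In MDST8 the members nearest the filter were H2BC11, left out at a geometric mean of 0.787 RPM, and H2BC5, kept at 1.83. In LoVo they were H2BC26, left out at 0.736, and H3C10, kept at 1.01. Fragments that fit several near-identical histone genes were not counted, so low values of clustered genes are uncertain. Values of single genes below are CPM scaled by TMM factors over all 24 libraries.

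Total counts ran from 16567606 to 22217009 fragments per library. TWIST1 itself gave 41.3 to 53.3 RPM in WT and 28.4 to 57 RPM over the clone libraries, so its mRNA level does not check the knockout. In LoVo the libraries labelled TWIST1 shRNA had 73 to 93 fragments of TWIST1 and those labelled shRNA control had 0, which allows up to 0.177 RPM. This goes against the labels, and the direction of every LoVo comparison rests on them. All 12 colon epithelial markers reached 1 RPM in LoVo, and 2 of 12 did in MDST8, where all 7 mesenchymal markers in WT did. Of these 7, 4 reached 1 RPM in LoVo shRNA control and 5 in LoVo TWIST1 shRNA. The 7 summed to 201 to 209 RPM and 48.1 to 56 RPM there, against 9716 to 10444 RPM in MDST8 WT. The 12 epithelial markers summed to 8168 to 8359 RPM in LoVo shRNA control and 4668 to 5322 RPM in TWIST1 shRNA. Of 5 leukocyte markers, 1 reached 1 RPM in LoVo shRNA control and 0 did in every other group. Of 6 fibroblast markers, 3 reached 1 RPM in MDST8 WT, where the 6 summed to 636 to 646 RPM. In LoVo shRNA control 2 of these 6 did, with a sum of 4.88 to 6.77 RPM. In LoVo TWIST1 shRNA 1 of them did, with a sum of 56 to 81.8 RPM. LoVo TWIST1 shRNA replicate 1 stood apart from its 2 partners, with 10.9% of fragments on mitochondrial genes against 6.24% and 5.47%, and 3.49 to 3.96% in the controls. Its part in the LoVo results is shown by values without it.

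H2AJ, an H2A variant read throughout the cell cycle and known for its rise in senescent fibroblasts and its expression in luminal epithelium, ran from near 0 to about 90 CPM over the groups. MDST8 WT libraries had 8.71, 8.67 and 8.87 CPM. Clone 3.6 had 0.135, 0.246 and 0.0461 CPM, from 3, 5 and 1 fragments. Its 3 libraries lay far below those of every other group, and 9 fragments against 516 gave a ratio to WT of 0.016. This is a description of the value for which the gene was chosen. The fitted log2 fold change was -5.91 ± 0.26 (SE). Between WT and clone 3.6 came clone 3.5, with 2.8, 2.47 and 1.71 CPM, and clone 1.1, with 4.42, 4.64 and 4.81 CPM. Clone 3.2 gave 5.56, 4.8 and 5.6 CPM and overlapped clone 1.1. All of these libraries lay below all WT libraries. Clone 2.2 alone lay above WT, at 12.5, 11.7 and 13.4 CPM.

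**Figure D1:**
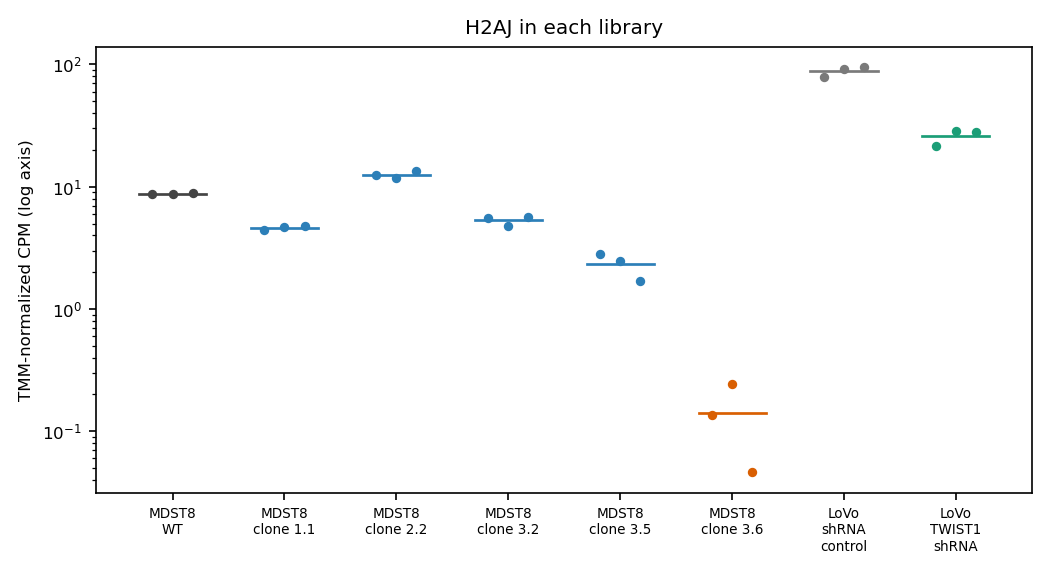
H2AJ in each of the 24 libraries, in TMM-normalized CPM on a log axis, by group. Points are libraries and bars are group means; the 3 libraries of clone 3.6 lie below 0.25 CPM, and WT lies at 8.75 ± 0.108 CPM (SD, n = 3).

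In the test of the other clones, H2AJ fell by 1.93 ± 0.16 on the log2 scale in clone 3.5 (adjusted p = 1.11e-12), by 0.93 ± 0.14 in clone 1.1 (adjusted p = 5.77e-07) and by 0.73 ± 0.14 in clone 3.2 (adjusted p = 2.26e-05), all by edgeR's quasi-likelihood test. In clone 2.2 the log2 fold change was 0.50 ± 0.12 (adjusted p = 0.000809), under the fold threshold of 0.58 that a call also needs. All comparisons with WT share the same 3 WT libraries. The difference among clones 1.1, 2.2, 3.2 and 3.5 was itself tested, and spanned 2.44 on the log2 scale (adjusted p = 3.2e-15, edgeR F test). Clones 3.2, 3.5 and 3.6, which share a clone name in the labels, had mean levels of 5.32, 2.32 and 0.142 CPM.

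The H2AJ gene lies on chromosome 12, plus strand, from 14774405 to 14778002 (hg38). The 250 bases before its start, chr12:14774155-14774404 on the plus strand of GRCh38.p14 from RefSeq, are shown because they hold the region next to the lost transcript.
H2AJ: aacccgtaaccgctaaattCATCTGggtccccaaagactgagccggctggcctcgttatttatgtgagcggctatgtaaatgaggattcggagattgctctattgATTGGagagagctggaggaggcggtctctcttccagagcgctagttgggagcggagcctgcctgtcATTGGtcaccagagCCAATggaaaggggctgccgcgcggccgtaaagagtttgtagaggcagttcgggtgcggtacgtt
Capitals mark 3 CCAAT boxes (CCAAT, 1 forward and 2 on the other strand) and 1 E-box CATCTG, a class of site that TWIST1 can bind, at -231 to -226 from the start. CATCTG stood on either strand in 10.1% of 21612 protein-coding promoters of this length and in 10.5% of the 86 histone promoters. CCAAT stood in 33% of all promoters and in 82.6% of histone promoters. No TWIST1 peak was listed within 3000 bp of the H2AJ start in MDST8 or LoVo.

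Few neighbours of H2AJ could be measured. Of 12 other protein-coding genes with a start within 500000 bp, 2 passed the filter in MDST8. WBP11, a splicing factor gene whose start lies 29.1 kb downstream, had 70.9 ± 0.59 CPM in clone 3.6 and 89.8 CPM in WT. ATF7IP, which encodes a partner of the H3K9 methyltransferase SETDB1 and starts at -408.7 kb from H2AJ, had 61.5 ± 4.51 CPM in clone 3.6 and 49.7 CPM in WT. Neither was called in clone 3.6, and in the other clones the only call was 1 higher, in clone 1.1. H4C16, an H4 gene that starts 3274 bp from H2AJ on the other strand, had 10, 17 and 17 fragments in clone 3.6 against 3, 8 and 9 in WT. The gene was under the filter. ARHGDIB, whose start lies 187.3 kb downstream, was also under it in MDST8. Its mean was 1.33 CPM in WT and 0.99, 1.64, 0.508, 0.276 and 0.412 CPM in clones 1.1, 2.2, 3.2, 3.5 and 3.6. C12orf60, under the filter too, had 0.956 ± 0.24 CPM in clone 3.6 and 0.835 CPM in WT. These differences were not tested. Among LoVo libraries 6 of the 12 neighbours were tested, with 1 higher and 3 lower in those labelled TWIST1 shRNA, where 52.7% of all tested genes were called. PLBD1 fell by 4.61 ± 0.08 and GUCY2C, the guanylin receptor of intestinal epithelium, by 3.91 ± 0.21 on the log2 scale (edgeR adjusted p = 3.75e-17 and 2.92e-11). ARHGDIB also fell, and C12orf60 rose.

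The variant genes moved unevenly in the knockout clones. In clone 1.1, 7 of the 16 tested histone genes were called, 4 higher and 3 lower, beside 19.5% of all tested genes called, 12% higher and 7.49% lower. In clone 2.2 there were 7 (2 higher, 5 lower), beside 14.7% of all genes called, 8.05% higher and 6.64% lower. In clone 3.2 there were 6 (3 higher, 3 lower), beside 17% called, 10.9% higher and 6.09% lower. In clone 3.5 there were 8 (4 higher, 4 lower), beside 18.5% called, 11.2% higher and 7.25% lower. In clone 3.6 there were 5 (2 higher, 3 lower), beside 27% called, 15.3% higher and 11.7% lower; H2AJ was 1 of the 3 by its choice, and the count is a description. Each variant gene called in a clone was lower there than in WT. The replication-dependent genes called were higher, with the exception of H1-2 in clone 2.2.

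**Figure D2:**
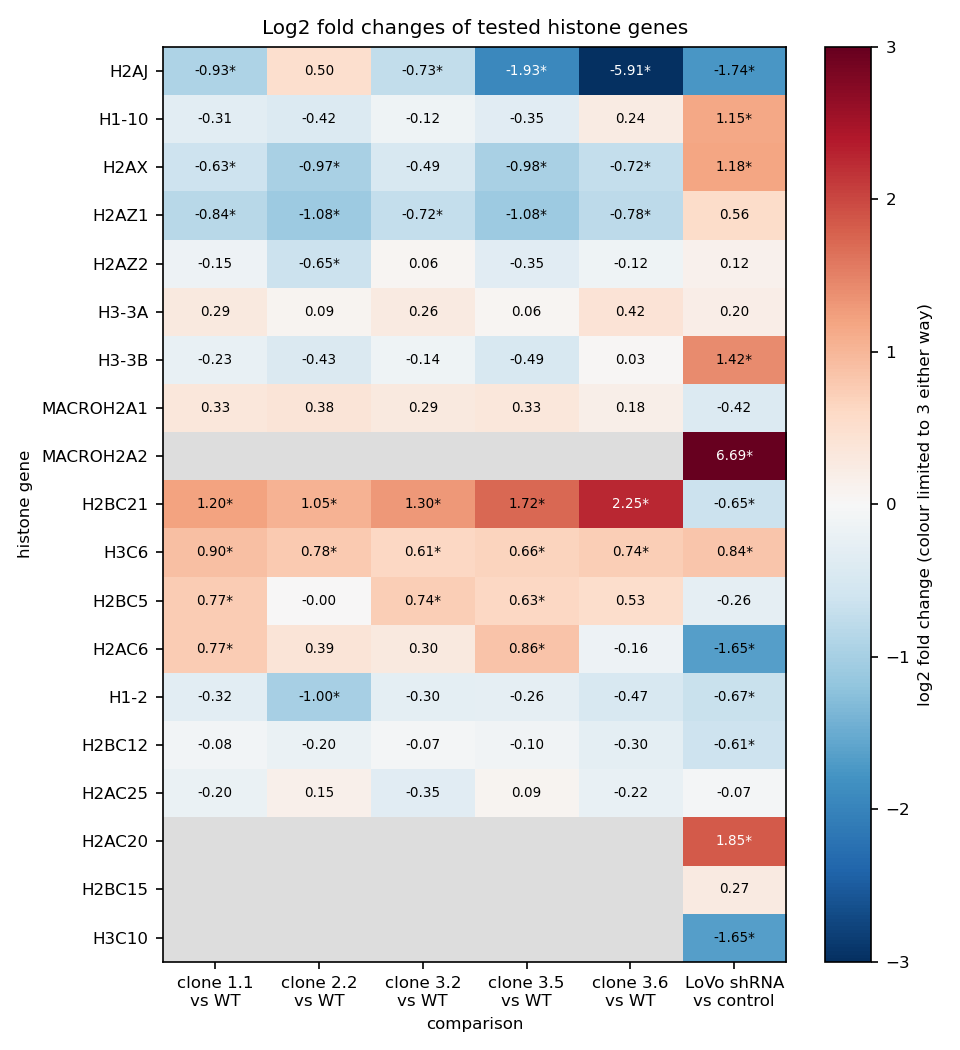
Log2 fold changes of 19 of the 20 tested histone genes in the 5 clone comparisons with WT and in LoVo TWIST1 shRNA against shRNA control. Numbers give the log2 fold change, and grey a gene under the filter in that line. An asterisk marks a call at an adjusted p below 0.05 and an absolute log2 fold change above 0.58. In clone 3.6 asterisks are a description only and not a test result, because H2AJ was chosen for its value there. MACROH2A2, H2AC20 and H3C10 passed the LoVo filter through 1 group; H2BC21 is positive in every clone and H2AZ1 is negative in every clone.

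H2AZ1 and H2AZ2 both encode H2A.Z, which replaces H2A at nucleosomes beside promoters and enhancers. H2AZ1 stood at 456, 437 and 448 CPM in WT and between 202 and 281 CPM over the 15 clone libraries, none of which overlapped WT. Its log2 fold changes were -0.84 ± 0.04 in clone 1.1, -1.08 ± 0.04 in clone 2.2, -0.72 ± 0.04 in clone 3.2 and -1.08 ± 0.04 in clone 3.5 (edgeR adjusted p = 7.32e-20, 2.36e-22, 5.63e-18 and 1.66e-22), and -0.78 ± 0.04 in clone 3.6. H2AZ2 behaved differently. It stood at 352 ± 1.8 CPM in WT, 227 ± 4.29 CPM in clone 2.2 and 369 ± 5.6 CPM in clone 3.2. It was called in clone 2.2 alone, where it fell by 0.65 ± 0.03 (edgeR adjusted p = 7e-18).

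H2AX, the variant whose tail is phosphorylated around DNA breaks, was at 366, 377 and 360 CPM in WT. No clone library exceeded 273 CPM, in clone 3.2, and the lowest had 175 CPM, in clone 2.2. H2AX fell by 0.63 ± 0.04 in clone 1.1, 0.97 ± 0.04 in clone 2.2 and 0.98 ± 0.04 in clone 3.5 (edgeR adjusted p = 8.21e-15, 2.05e-19 and 1.14e-19). The log2 fold change was -0.49 ± 0.04 in clone 3.2, under the fold threshold (edgeR adjusted p = 5.69e-12), and -0.72 ± 0.04 in clone 3.6.

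H1-10, H3-3A, H3-3B and MACROH2A1 stayed within the fold threshold in every clone. H1-10, a linker histone, ranged from -0.42 to 0.24 on the log2 scale. H3-3A and H3-3B encode the same H3.3 protein, which is laid down without replication, and their log2 fold changes ranged from 0.06 to 0.42 and from -0.49 to 0.03. MACROH2A1, an H2A variant with a macrodomain that is found in silent chromatin, ranged from 0.18 to 0.38. Per kb of exon the WT levels ran from 231 CPM for H2AX and 197 for H2AZ1 down to 9.49 for MACROH2A1, 2.63 for H2AJ and 0.0329 for MACROH2A2. Exon here means all annotated exons of a gene together, not the length of an mRNA. For MACROH2A1 these cover 17013 bp, where its longest coding model is 1917 bases. The order of these values therefore depends on the annotation too and does not rank mRNA levels. H1-8 had no fragment in any library, H1-7 and H3-7 had at most 2, and H3-5 had at most 21.

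**Figure D3:**
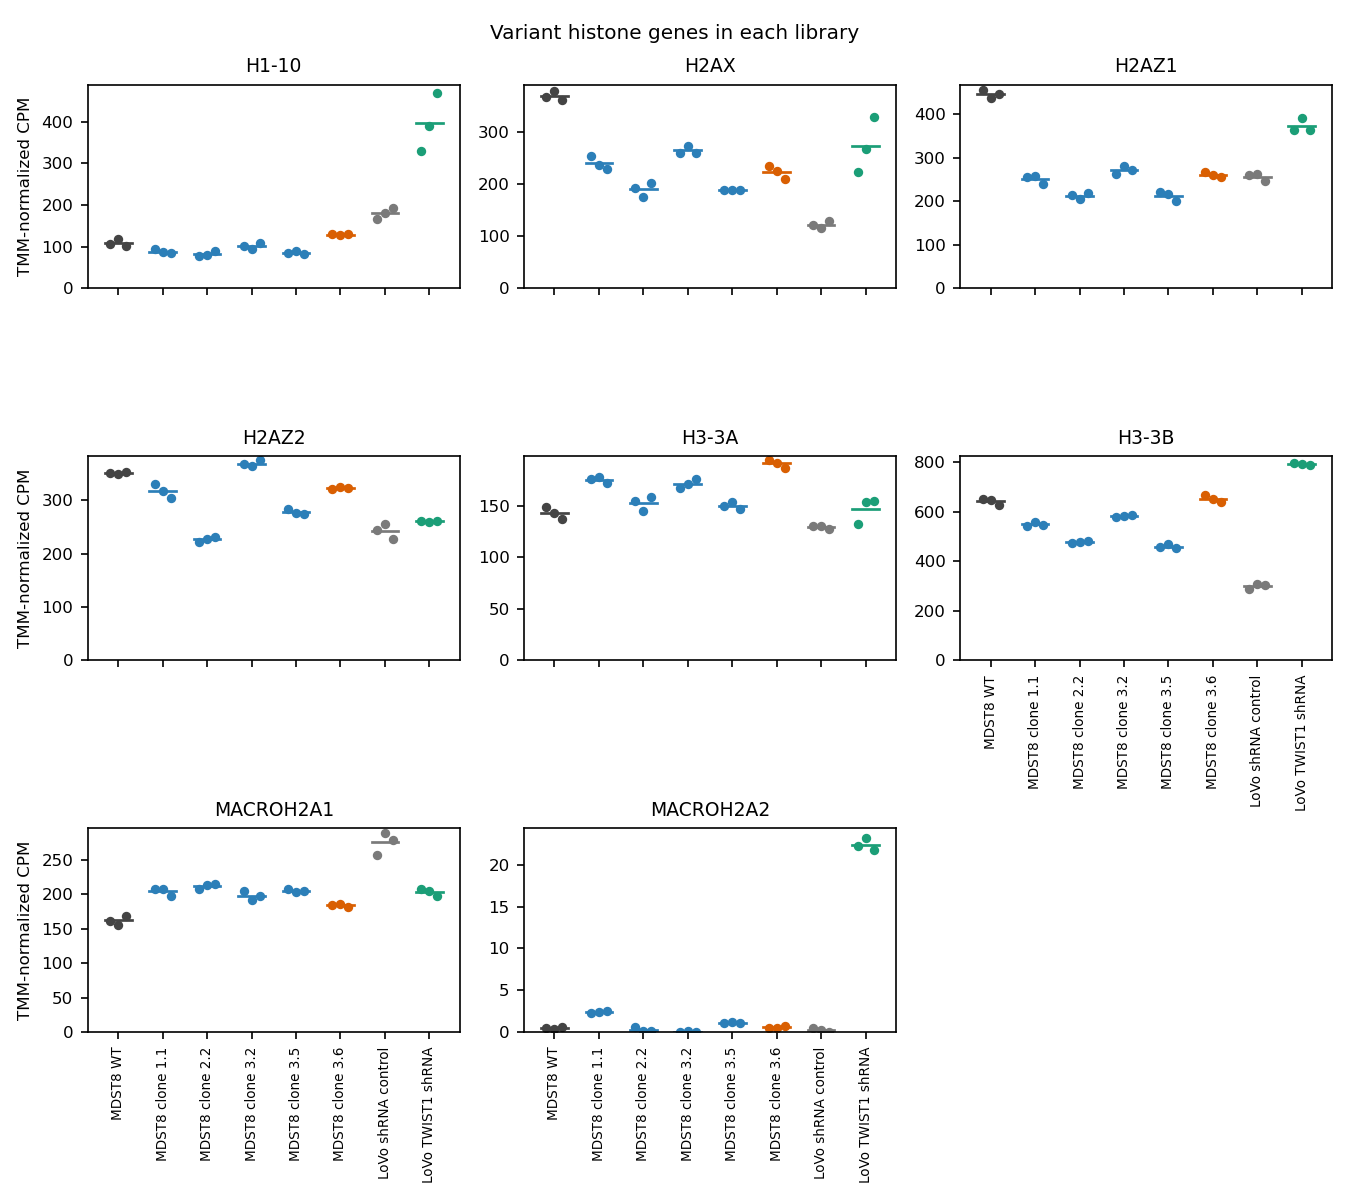
Levels of 8 variant histone genes in each library, in TMM-normalized CPM on linear axes that start at 0, by group. Points are libraries and bars are group means; H2AX and H2AZ1 lie below WT in every clone library, and H3-3B and MACROH2A2 are highest in the LoVo libraries labelled TWIST1 shRNA.

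MACROH2A2, the second macroH2A gene, was under the filter in MDST8, and its counts differed between clones. It had 44, 51 and 48 fragments in clone 1.1 and 19, 23 and 21 in clone 3.5, against 10, 7 and 12 in WT. Clone 3.2 had 1, 2 and 1. When genes were instead kept by edgeR's filterByExpr, the log2 fold changes were 2.26 ± 0.35 in clone 1.1, 1.17 ± 0.39 in clone 3.5 and -2.81 ± 0.64 in clone 3.2, given as a description because a low gene can pass through the group where it is high.

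Among the replication-dependent genes, H2BC21 rose in each clone tested. This H2B gene is known for a polyadenylated transcript outside S phase. WT libraries had 2.2, 2.51 and 1.7 CPM, from 42, 50 and 34 fragments. The lowest clone library had 4.15 CPM, in clone 1.1, and clone 3.6 had 8.95, 10.4 and 11.2 CPM, so WT and clones did not overlap. H2BC21 rose by 1.20 ± 0.18 in clone 1.1, 1.05 ± 0.19 in clone 2.2, 1.3 ± 0.18 in clone 3.2 and 1.72 ± 0.17 in clone 3.5 on the log2 scale (edgeR adjusted p = 6.64e-07, 1.05e-05, 1.32e-07 and 1.94e-10). In clone 3.6 the log2 fold change was 2.25 ± 0.16, a 4.76-fold higher level.

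H2AC20, an H2A gene, starts 236 bp from H2BC21 and is read in the other direction. Its level went the opposite way, with 23, 31 and 21 fragments in WT and 5 to 16 in every clone library. It was under the filter, and with filterByExpr it had log2 fold changes of -1.44 ± 0.40, -1.28 ± 0.40, -1.76 ± 0.42 and -1.10 ± 0.39 in clones 1.1, 2.2, 3.2 and 3.5, again as a description. The H2AC20 model is 494 bases long, ends 5 bases after the stem-loop and has no poly(A) signal. The bases before the H2BC21 start, which span the gap between the pair, are shown because both genes are read from them (RefSeq, GRCh38.p14, chr1:149886683-149886932, minus strand).
H2BC21: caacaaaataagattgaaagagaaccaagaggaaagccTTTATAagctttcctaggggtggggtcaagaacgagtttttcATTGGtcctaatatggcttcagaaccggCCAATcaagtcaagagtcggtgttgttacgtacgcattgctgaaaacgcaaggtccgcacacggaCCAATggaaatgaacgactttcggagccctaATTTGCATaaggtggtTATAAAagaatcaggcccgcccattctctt
Capitals mark 3 CCAAT boxes, an octamer (ATTTGCAT) and a TATA box (TATAAA) before H2BC21, and a second TATA box on the opposite strand. The octamer stood on either strand in 75% of 20 H2B promoters and in 1.58% of all 21612. The TATA box stood in 66.7% of replication-dependent promoters, 29.4% of variant promoters and 8.99% of all. The CCAAT box stood in all 20 H2B promoters.

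H3C6, an H3 gene, was low, with 36, 34 and 14 fragments in WT and 36 to 64 in the clone libraries. On the CPM scale WT replicates A and B, at 1.89 and 1.7, overlapped clone 3.2 replicate C, at 1.71. Its log2 fold changes were 0.90 ± 0.26 in clone 1.1, 0.78 ± 0.26 in clone 2.2, 0.61 ± 0.27 in clone 3.2 and 0.66 ± 0.27 in clone 3.5 (edgeR adjusted p = 0.00312, 0.0121, 0.0483 and 0.0353), and 0.74 ± 0.26 in clone 3.6. The calls in clones 2.2, 3.2 and 3.5 ended without WT replicate C, as did passing the thresholds in clone 3.6. Over the 6 fits that left out 1 library the lowest values were 0.47, 0.29, 0.34 and 0.42 in these 4 clones. The call in clone 3.2 also ended without its own replicate A or B, and that in clone 3.5 without its own replicate A.

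H2BC5 and H2AC6, an H2B and an H2A gene, rose in some clones. H2BC5 had 1.32 ± 0.193 CPM in WT and 2.27 ± 0.479, 2.23 ± 0.46 and 2.05 ± 0.332 CPM in clones 1.1, 3.2 and 3.5 (log2 fold changes 0.77 ± 0.25, 0.74 ± 0.25 and 0.63 ± 0.26; edgeR adjusted p = 0.00863, 0.0111 and 0.0352). These calls ended when single libraries were left out (clone 1.1 replicate C; WT replicate B or clone 3.2 replicate B; WT replicate B or clone 3.5 replicate B or C), and over all fits that left out 1 library the lowest log2 fold changes were 0.59, 0.62 and 0.50. H2AC6 rose by 0.77 ± 0.20 in clone 1.1 and by 0.86 ± 0.20 in clone 3.5 (edgeR adjusted p = 0.0014 and 0.000442). Clone 3.5 libraries were unequal, at 2.98, 6.31 and 5.77 CPM, and the lowest overlapped WT, at 2.41, 2.86 and 3.01 CPM.

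The other 3 genes of this class tested in MDST8 were mostly level. H1-2, a linker histone, had 3.46, 3.36 and 3.86 CPM in WT and 1.43, 1.74 and 2.21 CPM in clone 2.2, where it fell by 1.00 ± 0.22 (edgeR adjusted p = 0.000242). H2BC12 and H2AC25 were called in no clone, with log2 fold changes from -0.30 to -0.07 and from -0.35 to 0.15. H2BC21, H3C6 and H2BC5 have a model with a poly(A) signal, whereas H1-2, H2BC12, H2AC25 and H2AC6 have none. The longest models of H2AC6, H1-2, H2BC12 and H2AC25 are 1462, 731, 495 and 895 bases.

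**Figure D4:**
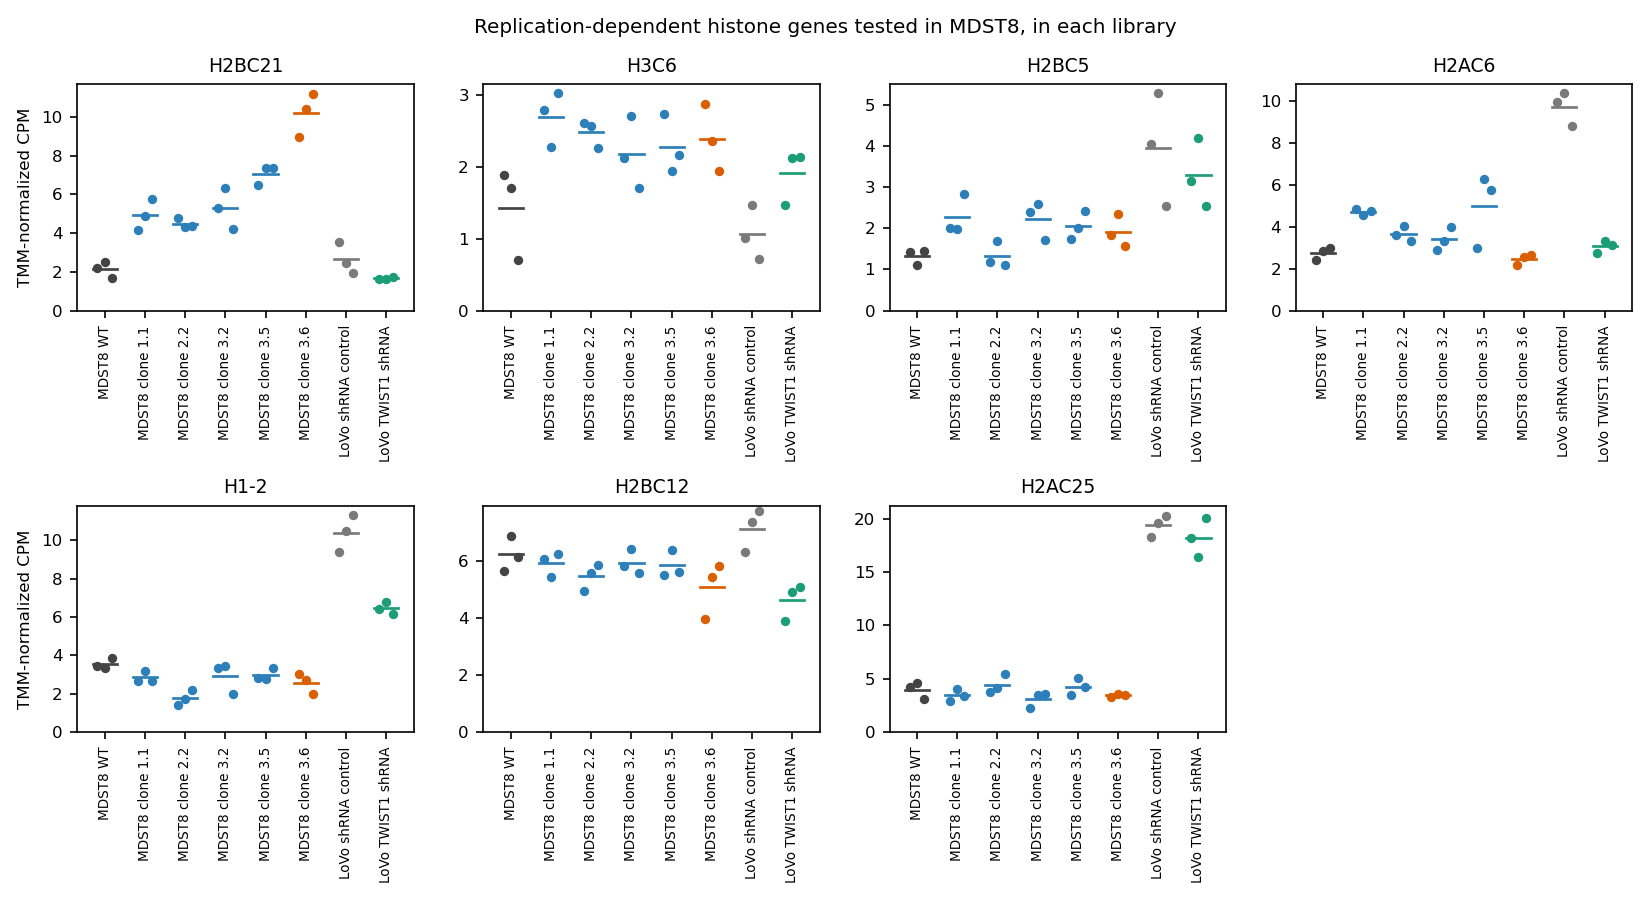
Levels of the 7 replication-dependent histone genes tested in MDST8 in each of the 24 libraries, in TMM-normalized CPM on linear axes that start at 0, by group. Points are libraries and bars are group means; every clone library of H2BC21 lies above the 3 WT libraries.

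The summed level of the 71 replication-dependent genes differed little among the MDST8 groups, from 30.1 ± 1.01 RPM in clone 2.2 to 34.8 ± 1.79 RPM in clone 3.5, with WT at 31.7 ± 2.3. The sum held parts that went opposite ways. The split, by exon length, was chosen with the values known and was given no test. The 15 genes with more than 1000 bp of exon had 14.2, 14.8 and 11.5 RPM in WT, below every clone library, whose lowest value was 15.4 RPM in clone 3.2. H2BC21, among the 15, averaged 2.2 RPM in WT. It averaged 4.96, 4.5, 5.3, 7 and 10.5 RPM in clones 1.1, 2.2, 3.2, 3.5 and 3.6. The 15 together averaged 13.5 RPM in WT and 18.8, 18.1, 16.8, 20.8 and 21.8 RPM in these clones. A large part of their rise was thus H2BC21. Exon length counts all annotated exons, so H2AC25, whose longest model is 895 bases, is also among the 15. The 56 genes with shorter exons had 17.2, 19.4 and 18.1 RPM in WT, above every clone library, whose highest value was 16.9 RPM, also in clone 3.2. These sums rest on 220 to 479 fragments per MDST8 library.

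**Figure D5:**
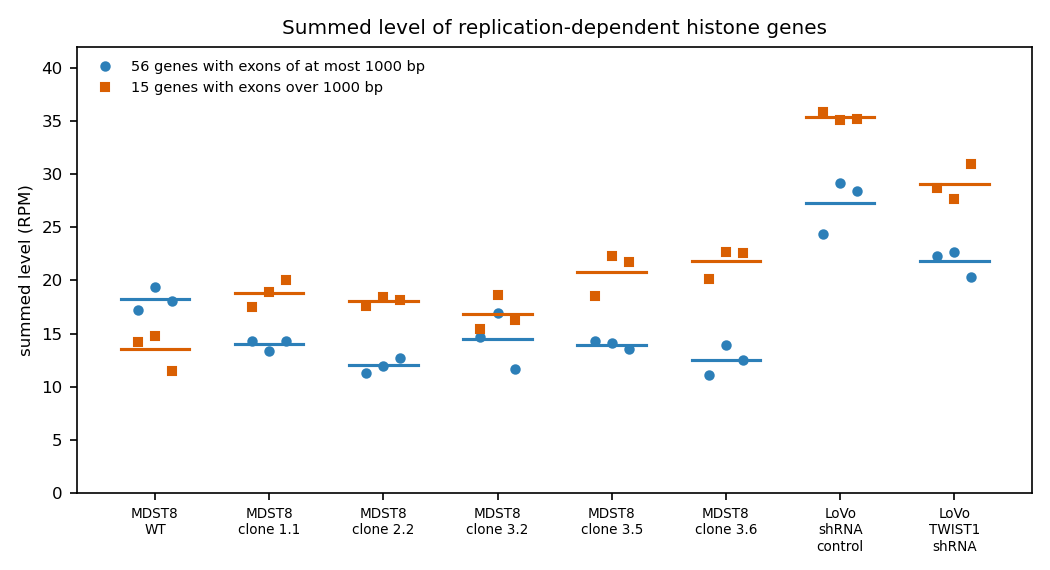
Summed level of replication-dependent histone genes in each library, in RPM, split into 56 genes with at most 1000 bp of exon (circles) and 15 with more (squares). Bars are group means; the circles lie above the squares in WT and below them on average in every clone.

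A total of 6 tested histone genes differed among clones 1.1, 2.2, 3.2 and 3.5 in the F test, beside 21.1% of all tested genes called. H2AJ spanned the most, at 2.44 on the log2 scale (edgeR adjusted p = 3.2e-15). H2BC5, H1-2, H2AZ2 and H2BC21 spanned 0.77, 0.74, 0.71 and 0.66 (edgeR adjusted p = 0.0252, 0.0138, 1.89e-18 and 0.00164). H2AX and H2AZ1 were not called, with spans of 0.49 and 0.36, under the fold threshold.

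Genes of DNA replication in S phase, when bulk histones are made, were lower in the clones. Of 32 such genes tested, 19 were called in clone 1.1, 8 in clone 2.2, 12 in clone 3.2 and 20 in clone 3.5, each of them lower, and 19 lower in clone 3.6. Over all tested genes 7.49%, 6.64%, 6.09%, 7.25% and 11.7% were called lower in these clones, against 59.4%, 25%, 37.5%, 62.5% and 59.4% of the list. Their median log2 fold changes were -0.66, -0.38, -0.48, -0.67 and -0.74, where the median over all tested genes was between -0.01 and 0.00. GINS2, a subunit of the replicative helicase complex, fell by 0.86 ± 0.06, 0.67 ± 0.06, 0.77 ± 0.06 and 1.26 ± 0.07 in clones 1.1, 2.2, 3.2 and 3.5 (edgeR adjusted p = 8.68e-14, 4.59e-11, 1.28e-12 and 1.19e-17). TYMS, thymidylate synthase, fell by 0.89 ± 0.07, 0.71 ± 0.07, 0.82 ± 0.07 and 0.87 ± 0.07 in the same clones (edgeR adjusted p = 2.24e-13, 6.13e-11, 1.46e-12 and 4.81e-13). The part of S phase in the histone values was not tested, and fewer cells in S phase and less RNA per cell cannot be told apart in bulk RNA.

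Histone chaperones and exchange factors, which carry histones to and from DNA, were called in shares of 20%, 16.7%, 6.67%, 36.7% and 23.3% in clones 1.1, 2.2, 3.2, 3.5 and 3.6, beside 19.5%, 14.7%, 17%, 18.5% and 27% of all tested genes. Of 30 tested, 1 rose and 5 fell in clone 1.1, 5 fell in clone 2.2, 2 rose in clone 3.2 and 11 fell in clone 3.5; clone 3.6 had 1 higher and 6 lower. ASF1B, which hands H3 and H4 to the assembly complexes, fell by 0.70 ± 0.05, 0.72 ± 0.05 and 1.01 ± 0.06 in clones 1.1, 2.2 and 3.5 (edgeR adjusted p = 2.66e-13, 2.17e-13 and 3.89e-17). MCM2, a helicase subunit that also holds H3 and H4, fell by 0.65 ± 0.06 in clone 2.2 and 0.99 ± 0.07 in clone 3.5 (edgeR adjusted p = 9.65e-11 and 4.23e-15). ATRX, which loads H3.3, rose by 0.75 ± 0.04 in clone 1.1 and 0.70 ± 0.04 in clone 3.2 (edgeR adjusted p = 6.47e-17 and 4.04e-16). CENPA, the centromeric H3, fell by 0.75 ± 0.07 in clone 2.2 and 0.91 ± 0.07 in clone 3.5 (edgeR adjusted p = 5.41e-11 and 7.53e-13).

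Few genes of the machinery that transcribes and cuts histone mRNAs were called in MDST8. Of 20 tested, 1 was called in each of clones 1.1, 2.2 and 3.5 (5% of the list), 0 in clone 3.2 by edgeR and 2 in clone 3.6 (10%), beside the shares of all genes just given. SLBP, the stem-loop binding protein, fell by 0.64 ± 0.04 in clone 3.5 (edgeR adjusted p = 3.38e-16). LSM11, a subunit of the U7 snRNP, rose by 0.58 ± 0.08 in clone 2.2 (edgeR adjusted p = 2.29e-07). MBLAC1, a nuclease of histone pre-mRNA, fell by 0.67 ± 0.18 in clone 1.1 (edgeR adjusted p = 0.00166). In clone 3.6, ZNF473 and SNRPB were lower, with log2 fold changes of -0.84 ± 0.07 and -0.61 ± 0.04.

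In LoVo, H3-3B, H2AX and H1-10 rose and H2AJ fell. Of 20 histone genes tested, 13 were called in the libraries labelled TWIST1 shRNA against those labelled shRNA control, 7 higher and 6 lower, beside 52.7% of all tested genes called, 26.6% higher and 26.1% lower. The counts include MACROH2A2, H2AC20 and H3C10, which passed the filter through 1 of the groups compared, so that they are described without a p-value. Without TWIST1 shRNA replicate 1, 12 were called, 8 higher and 4 lower. The called share over all genes is not given for that fit, so these counts have no background beside them.

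MACROH2A2 had 7, 4 and 0 fragments in the control libraries and 408, 382 and 376 in the shRNA libraries, or 0.218 ± 0.222 and 22.4 ± 0.756 CPM. The fitted log2 difference ran from 6.11 to 7.57 when 1 library was left out. H3-3B rose from 300 ± 10.3 to 793 ± 5.35 CPM (log2 fold change 1.42 ± 0.06, edgeR adjusted p = 6.41e-13), while H3-3A, which encodes the same protein, had a log2 fold change of 0.20 ± 0.06. H2AX and H1-10 rose by 1.18 ± 0.10 and 1.15 ± 0.10 (edgeR adjusted p = 1.53e-08 and 1.09e-08). H2AZ1 had a log2 fold change of 0.56 ± 0.06, under the fold threshold, and of 0.61 ± 0.05 without TWIST1 shRNA replicate 1, where it was called. H2AZ2 and MACROH2A1 were not called, at 0.12 ± 0.06 and -0.42 ± 0.06.

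H2AJ went the other way from these variants. It had 78.1, 91.1 and 94.7 CPM in the control libraries and 21.6, 28.3 and 28.1 CPM in the shRNA libraries, with no overlap. It fell by 1.74 ± 0.10 on the log2 scale (edgeR adjusted p = 5.94e-11), and by 1.59 ± 0.08 without TWIST1 shRNA replicate 1. Of the replication-dependent genes, 2 were called higher and 5 lower, H2AC20 and H3C10 among them. H2AC6 fell by 1.65 ± 0.17, from 9.95, 10.4 and 8.83 CPM to 2.77, 3.34 and 3.13 CPM (edgeR adjusted p = 1.8e-07). H1-2 fell by 0.67 ± 0.14 and H2BC12 by 0.61 ± 0.18 (edgeR adjusted p = 0.000403 and 0.00488). H2AC20 had 3, 17 and 16 fragments in the control libraries and 59, 36 and 35 in the shRNA libraries. H3C10, at the edge of the filter, had a log2 difference of -1.65 ± 0.36 and was tested in 3 of the 6 fits that left out 1 library.

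The smaller LoVo calls were less firm. H2BC21 fell by 0.65 ± 0.28 (edgeR adjusted p = 0.0474), and the call ended in 5 of the 6 fits that left out 1 library, all but the one without control replicate C. Over the 6 fits the value ran from -0.84 to -0.40. H3C6 rose by 0.84 ± 0.33 (edgeR adjusted p = 0.0288), and the call ended without control replicate A or C or TWIST1 shRNA replicate 2 or 3. Over the 6 fits its lowest value was 0.60. The H2BC12 call ended without control replicate C or TWIST1 shRNA replicate 1, at -0.47 without the latter. The other lists had called shares of 53.1% for S phase genes, 30% for processing genes and 40% for chaperones, beside 52.7% of all tested genes. Among 32 S phase genes, 17 rose and none fell by edgeR, where 26.6% of all tested genes were called higher. Their median log2 fold change was 0.63 against 0.01 over all tested genes. Without TWIST1 shRNA replicate 1, 18 rose, and the share over all genes is not given for that fit. TK1, thymidine kinase, rose by 2.21 ± 0.07 (edgeR adjusted p = 7.07e-14). CDC6, which licenses replication origins, rose by 2.1 ± 0.06 (edgeR adjusted p = 9.08e-15). Among 20 processing genes 3 rose and 3 fell, with LSM11 lower by 1.44 ± 0.09 and NPAT, the coactivator of histone gene transcription, higher by 0.76 ± 0.09 (edgeR adjusted p = 1.87e-10 and 9.92e-07). Among 30 chaperones 8 rose and 4 fell, with NAP1L1, an H2A and H2B carrier, lower by 1.90 ± 0.06 (edgeR adjusted p = 9.51e-14).

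Histone genes also differed between the lines. Of 17 tested over all libraries, 12 were called in LoVo shRNA control against MDST8 WT, 7 higher and 5 lower, beside 64.6% of all tested genes called, 30.6% higher and 34% lower. H2AJ was 10.1-fold higher in LoVo (log2 fold change 3.33 ± 0.10, edgeR adjusted p = 3.28e-25). H2AC25, H2AC6, H2BC5 and H1-2 were higher by 2.29 ± 0.15, 1.82 ± 0.19, 1.59 ± 0.27 and 1.54 ± 0.17 on the log2 scale. H2AX, H3-3B and H2AZ1 had log2 fold changes of -1.60 ± 0.08, -1.10 ± 0.04 and -0.80 ± 0.04. MACROH2A2 is counted among the 5 lower, but it passed the filter through libraries outside this comparison. Its log2 fold change of -1.18 ± 0.54 is therefore given without a p-value. It no longer passed the thresholds without WT replicate A or C or control replicate B or C. Over the 6 fits that left out 1 library the value ran from -2.07 to -0.61. H1-10 and MACROH2A1 were higher, at 0.73 ± 0.08 and 0.77 ± 0.04.

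Against MDST8 WT, the LoVo libraries labelled TWIST1 shRNA had 7 histone genes called, all higher, beside 59.6% of all tested genes called, 29.1% higher and 30.6% lower. They included H2AC25, H1-10, H2AJ, H2BC5 and H1-2, with log2 fold changes of 2.2 ± 0.15, 1.86 ± 0.08, 1.57 ± 0.11, 1.31 ± 0.27 and 0.86 ± 0.18. MACROH2A2 was also counted, and its LoVo TWIST1 shRNA libraries were the ones in which it was high enough to be tested. The 71 replication-dependent genes summed to 62.7 ± 2.08 RPM in LoVo shRNA control and 50.9 ± 0.488 RPM in TWIST1 shRNA. The line, its infection with an shRNA virus and the handling of its libraries cannot be told apart.

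TWIST1 ChIP-seq gave 1 peak list per line, with no replicates, and the lists hold peaks at a p-value below 0.05. Within 3000 bp of the start, a peak was listed at 54 of 85 histone genes in MDST8 (63.5%) and at 39 in LoVo (45.9%), given as a description with no test. Over all 20026 protein-coding genes the shares were 70.9% and 57.3%. A peak was listed in both lines at 23 histone genes (27.1%, against 41.1% of all protein-coding genes) and in neither at 15. Clustered genes shared peaks, so that the 54 and 39 genes had 57 and 31 different peaks. No peak at a histone promoter reached a q-value of 0.05, and the lowest q-values were 0.125 in MDST8 and 0.195 in LoVo.

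In MDST8, peaks were listed near H2AZ1 (summit at 451 bp from the start, 3.2-fold enrichment, q = 0.544), H3-3B (1103 bp, 3.07-fold, q = 0.474) and H3C6 (-2296 bp, 3.2-fold, q = 0.544). None was listed near H2AJ, H2AX or H2BC21. The smallest p-value at a histone promoter in MDST8 belonged to H4C12, with a summit at -145 bp from its start and 3.92-fold enrichment. H4C12 was under the filter in both lines. In LoVo, peaks were listed near MACROH2A2 (2.62-fold, q = 0.751) and near H2AX (2.11-fold, q = 1).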

How the data were processed

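RNA-seq libraries were made from oligo-dT selected mRNA. Per the submitters' processing notes, reads were trimmed with Trim Galore 0.6.6 and aligned to hg38 with HISAT2 2.1.0. By the same notes, the authors counted fragments per gene with featureCounts 2.0.0 on GENCODE v43 without the strand option. A gene and its antisense partner therefore cannot be told apart. Among the tested genes named here, H1-10, H2AZ1, H3-3A, H3-3B, MACROH2A1, MACROH2A2 and H2BC5 overlap a gene on the other strand. Fragments that fit several genes were not counted. The deposited counts are raw, beside an exon length in bp. ChIP-seq reads were aligned with Bowtie2 2.4.5, and the authors called peaks with MACS2 2.2.7.1 against 1 input per line. The deposited peak lists give a score, a fold enrichment as a ratio, the −log10 p-value, the −log10 q-value and the summit offset.

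Counts were tested with edgeR 4.0.16 (quasi-likelihood, TMM; all 18 MDST8 libraries in 1 fit, the 6 LoVo libraries in another, all 24 for the line comparison). Genes were kept at a geometric mean of RPM + 1, minus 1, of at least 1, which left 13706, 14270 and 14185 genes. A gene was called when its log2 fold change exceeded 0.58 in size and its p, adjusted by Benjamini-Hochberg over all genes kept, was under 0.05. Errors of fold changes are SE, those of levels SD over 3 libraries. Values of 1 variant gene are not reported here, though it is in the counts and sums. Named genes were the other variant genes, the called replication-dependent genes, up to 4 called genes with the largest change per list and comparison (with their values in other clones), and the neighbours of H2AJ. H2AC20, H4C16 and H4C12 were named after their values were seen. The members and lists were chosen with earlier results of these data known. The fits were tested on simulated data. Replicate letters did not pair the MDST8 libraries: deviations of same-lettered libraries correlated at -0.11 to 0.12. Promoters (RefSeq, GRCh38.p14) and transcripts (GENCODE v44) were searched for exact motifs, and 62639 of 62703 gene IDs matched GENCODE v44. Alternatives were RLE factors, DESeq2 1.42.0, limma 3.58.1 on log2(count + 1) without normalization, other filters, single libraries left out, a replicate block and other peak windows and thresholds.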

Additional observations from a re-analysis of the deposited data

Results flagged for a closer look

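The change against WT of 6 of the 16 tested histone genes differed among clones 1.1, 2.2, 3.2 and 3.5 by edgeR's F test across these clones. Over all tested genes 21.1% were called in this test. For the genes reported here, the span of the 4 log2 fold changes was 2.44 for H2AJ, 0.77 for H2BC5, 0.74 for H1-2, 0.71 for H2AZ2 and 0.66 for H2BC21. H2AJ was lower than WT in clones 1.1, 3.2 and 3.5 and had a log2 fold change of 0.50 in clone 2.2. H1-2 and H2AZ2 were lowest in clone 2.2, and H2BC21 was highest in clone 3.5. No group had more than 3 libraries, so no library could be screened as an outlier within its group.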

How the results depend on the processing

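With no filter, 10 of 76 tested histone genes were called in clone 3.6 against WT, in place of 5 of 16. In LoVo TWIST1 shRNA against MDST8 WT, 18 of 78 were called without a filter, in place of 7 of 17. With filterByExpr the latter had 13 of 29, and LoVo shRNA control against MDST8 WT had 19 of 29 in place of 12 of 17. More genes were tested under both, and called shares over all genes are not given for these filters. Summed replication-dependent levels as TMM CPM were 68 in LoVo shRNA control and 51.7 in LoVo TWIST1 shRNA, in place of 62.7 and 50.9 RPM, and H2AJ in WT was 9.02 RPM in place of 8.75 CPM. Promoter peaks covered 24.7% of histone genes in LoVo and 40% in MDST8 within 1000 bp, 61.2% in LoVo within 5000 bp, 15.3% in each line at a p-value of at most 0.001 and 0% in each at a q-value of at most 0.05. Under limma without normalization the histone genes called higher and lower were 3 and 2 in clone 3.2 and 2 and 4 in clone 3.5. In clone 3.6 they were 3 and 3. Over all 13706 tested genes, 1763 and 611, 1291 and 1224, and 2687 and 1098 were called in these clones, in that order. Against MDST8 WT, histone calls were 5 and 6 in LoVo shRNA control and 7 and 3 in LoVo TWIST1 shRNA. Over all 14185 tested genes they were 3628 and 5589, and 3437 and 5124. The median over all genes in LoVo shRNA control against WT was -0.26, against -0.06 in the main fit. Of the 65 calls of named histone genes, DESeq2 ended 2, RLE factors 1 and limma 5; no value changed sign. The replicate block changed no count of histone genes called: it gave 7, 7, 6, 8 and 5 in clones 1.1, 2.2, 3.2, 3.5 and 3.6. Of 15 clone libraries, 4 correlated best with their own letter. The numbers of the LoVo groups are of different kinds (letters and digits), so no block was fitted there. Low counts limit H3C6, H2BC5, H2AC20 and MACROH2A2 in MDST8, and 65 histone genes were not tested at this depth.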
